A study of Bos taurus with 9 samples.

Results

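The genes described here are 8 components and regulators of the complement system: C1QC, C1R, C1S, C4A and C2 of the classical pathway, C3, where the pathways meet, and CFB and CFD of the alternative pathway. Members were all probe sets annotated with exactly 1 of these symbols, which gave 11 of the 24016 probe sets tested and 8 of 9155 named genes. C2 had 2 probe sets, C3 had 3, and the other genes had 1 each. No probe set that carried several symbols included a member.

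Messenger RNA was measured on Affymetrix bovine arrays, which read each transcript with a set of short probes, in 3 tissues of Yan yellow cattle bulls aged 24 months. The 3 arrays per tissue came from the longissimus dorsi, a long muscle of the back, and from a subcutaneous and an abdominal depot of adipose tissue. All animals were males of the same breed, kept under the same conditions, and none was treated as far as the labels say. The labels count 9 bulls without tying the samples to animals, so each p-value reflects only the spread between these arrays, which may be partly technical. Replicate numbers only name the arrays within a tissue.

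Complement is a cascade of plasma proteins that tags microbes, immune complexes and dying cells and can open pores in membranes. In the classical pathway, C1q binds its target and switches on the proteases C1r and C1s, which cleave C4 and C2 to form an enzyme that splits C3. In the alternative pathway, factor D cuts factor B when it is bound to C3b, and the enzyme formed splits more C3, which makes this pathway a loop of amplification. Most circulating complement comes from the liver, C1q comes largely from macrophages and related cells, and adipocytes are known as a main source of factor D, which was named adipsin for that reason. The C3 fragment C3a loses its last residue to become C3a-desArg, also called acylation-stimulating protein, which has been studied for its part in fat storage.

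Values are log2 of the deposited array intensity, so a difference of 1 is a doubling, and a tissue mean under 6 is called near background here. Array medians lay between 5.75 and 5.92. The labelled tissues carried their markers. Relative to muscle, 7 of 8 measured adipocyte genes were higher in fat, and 6 of 7 muscle fibre genes were lower. The exception was the probe set annotated as CKM, higher by 1.46. Its muscle mean was 8.58, while those of the other fibre genes ran from 12.30 (TNNT3) to 13.84 (ACTA1). Whether this probe set reads CKM was not tested. The ratio of 3′ to 5′ signal of GAPDH, which rises as RNA is degraded, was 0.937 to 1.01 in muscle, 1.26 to 1.62 in abdominal and 1.21 to 1.74 in subcutaneous adipose tissue. The same ratio for actin was 0.963 to 1.04 in muscle, 2.24 to 5.69 in abdominal and 3.86 to 8.17 in subcutaneous adipose tissue. Both ratios were higher on every adipose array than on every muscle array, and the part of RNA quality in the differences between adipose tissue and muscle was not tested.

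All 8 genes were higher in adipose tissue than in muscle. They were chosen with earlier results of these data known, so the counts and ranks below only describe them. By limma's moderated test with Benjamini-Hochberg adjustment over all probe sets and a threshold of 0.05, 11 of 11 member probe sets were called higher in adipose tissue (the mean of both depots), where 26.2% of all probe sets were called higher and 52.6% in either direction. On 10 of the 11, every adipose array lay above every muscle array, against 21.9% of all probe sets. With 1 probe set per gene (the brightest), the median difference of the 8 genes was 2.57, against -0.02 over all 9155 genes. Ranked by that difference among the 9155 genes, CFB stood at position 21, C4A at 50, C1QC at 157, C1R at 159, C2 at 165, C3 at 219, CFD at 512 and C1S at 752. Each depot by itself gave a like count. Abdominal fat had 11 of 11 probe sets higher than muscle (23.5% of all probe sets were called higher) and subcutaneous fat had 10 of 11 (24.6% of all probe sets). Both comparisons use the same muscle arrays. In bulk samples such as these, fewer cells of a type and less RNA per cell cannot be told apart.

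**Figure D1:**
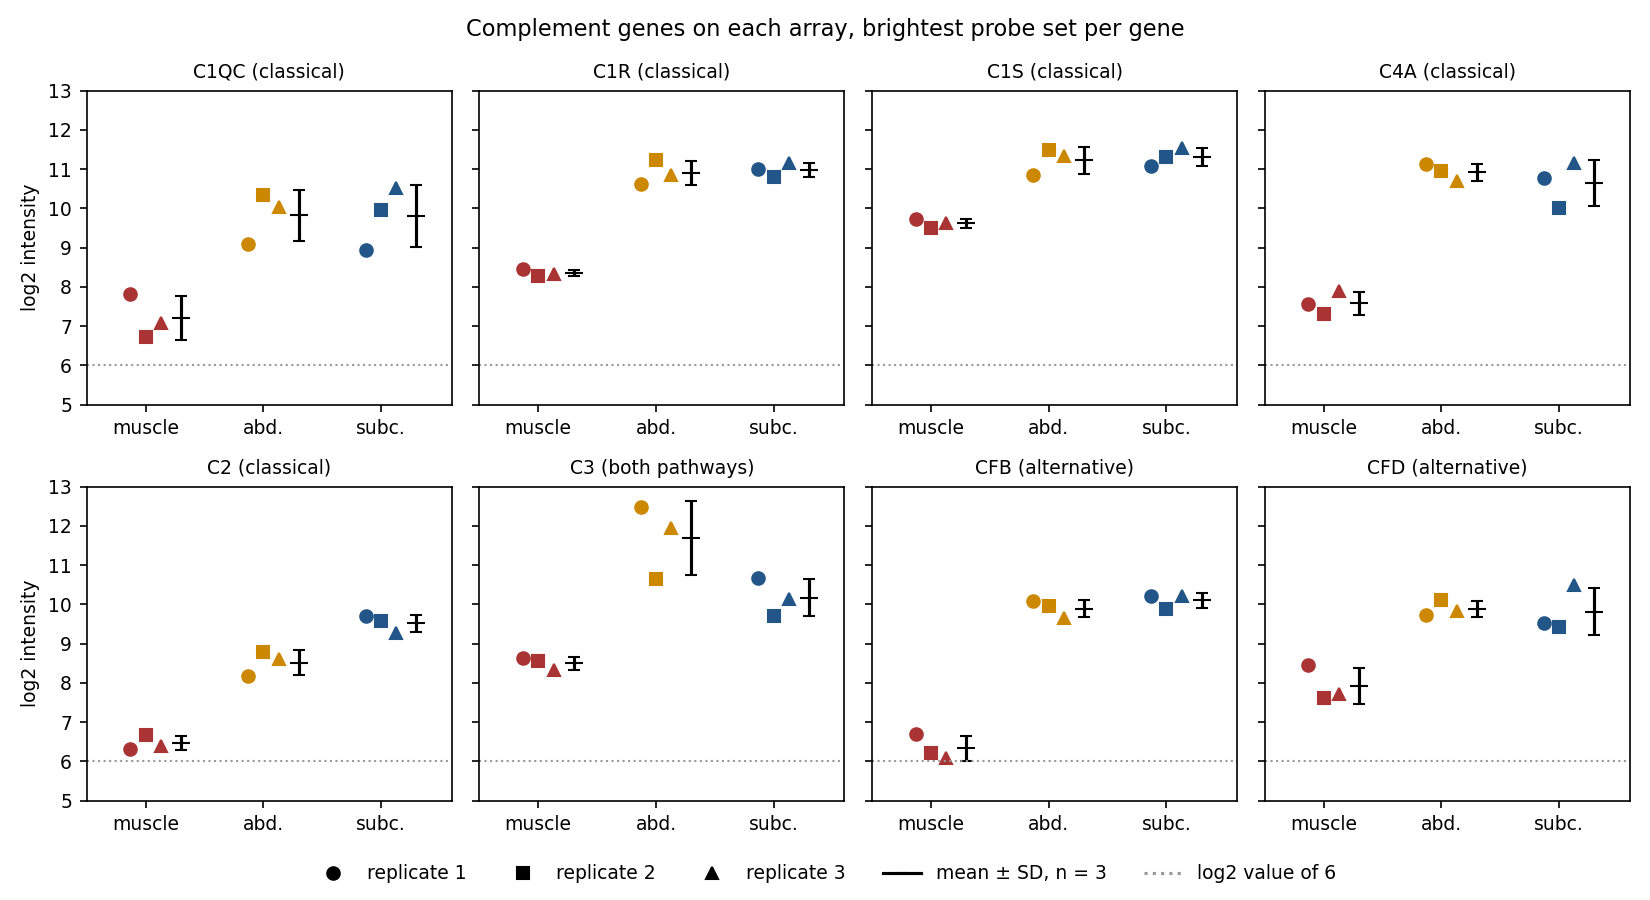
Log2 intensity (vertical axis) of the brightest probe set of each of the 8 complement genes on each array, by tissue; each point is 1 array, and each bar shows the mean ± SD of 3. In all 8 genes the 6 adipose arrays lie above the 3 muscle arrays, while the depots lie apart for C2 and overlap for the other genes.

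C1QC encodes a chain of C1q, the recognition molecule of the classical pathway. Its log2 intensity (probe set Bt.21576.1.S1_at) was 7.81, 6.72 and 7.08 in muscle, 9.10, 10.34 and 10.03 in abdominal fat and 8.94, 9.95 and 10.51 in subcutaneous fat. All adipose arrays were above all muscle arrays, and replicate 1 was the lowest array of each depot. The adipose tissue mean exceeded muscle by 2.61 ± 0.38 (SE, 6 arrays against 3; limma adjusted p = 0.000287), a 6.1-fold difference. Between the depots, abdominal minus subcutaneous was 0.02 (95% interval -0.97 to 1.01; limma adjusted p = 0.992), so the order of the depots is not settled for this gene.

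C1R and C1S encode the paired proteases of the C1 complex, and in the RefSeq gene table (assembly ARS-UCD2.0) they are neighbours with 0 protein-coding genes between them. C1R (Bt.8803.1.A1_at) read 8.45, 8.28 and 8.34 in muscle, 10.63, 11.22 and 10.86 in abdominal fat and 10.99, 10.79 and 11.16 in subcutaneous fat. C1S (Bt.1491.1.S1_at) read 9.72, 9.50 and 9.63, then 10.84, 11.49 and 11.32, then 11.07, 11.30 and 11.54 in the same order. Both genes were tightly grouped in muscle and higher on every adipose array, and the depots overlapped. The difference between adipose tissue and muscle was 2.59 ± 0.14 for C1R (limma adjusted p = 6.31e-07), or 6.0-fold. For C1S it was smaller in size, at 1.64 ± 0.16 (limma adjusted p = 2.07e-05), or 3.13-fold. The differences between depots were -0.07 (95% interval -0.45 to 0.30) for C1R and -0.09 (95% interval -0.50 to 0.33) for C1S, neither past the threshold.

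C4A encodes C4, which the C1 proteases cleave and which binds covalently to the target surface. Its probe set, Bt.4507.1.S1_at, read 7.57, 7.30 and 7.89 in muscle, 11.12, 10.95 and 10.69 in abdominal fat and 10.78, 10.01 and 11.16 in subcutaneous fat. Muscle was far below both depots, which overlapped with each other. Adipose tissue exceeded muscle by 3.20 ± 0.24 (limma adjusted p = 3.59e-06), 9.18-fold. Abdominal minus subcutaneous was 0.27 (95% interval -0.35 to 0.89; limma adjusted p = 0.75). C4 genes occur in near-identical copies in many mammals, and a probe set would read such copies together, so the value may belong to more than this gene alone.

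C2 encodes the protease that joins C4b to form the classical C3-splitting enzyme, and it was the gene of the 8 with a called difference between the fat depots. Its brighter probe set, Bt.24345.1.S1_at, read 6.32, 6.66 and 6.40 in muscle, 8.17, 8.78 and 8.60 in abdominal fat and 9.70, 9.58 and 9.27 in subcutaneous fat. The 3 tissues formed 3 separate steps with no overlap, muscle lowest and subcutaneous fat highest. Abdominal fat exceeded muscle by 2.06 (4.17-fold; limma adjusted p = 1.77e-05) and subcutaneous fat exceeded muscle by 3.06 (8.32-fold; limma adjusted p = 1.71e-06). The dimmer probe set, Bt.24345.2.S1_at, repeated the same order: 5.48, 5.50 and 5.26 in muscle, 5.90, 6.01 and 6.40 in abdominal fat, and 6.87, 6.86 and 6.80 in subcutaneous fat. Its differences from muscle were smaller, at 0.69 for abdominal (limma adjusted p = 0.00412) and 1.43 for subcutaneous fat (limma adjusted p = 4.46e-05), and its muscle mean was near background.

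C3 is the protein on which the pathways converge, and its 3 probe sets gave differences of unequal size. The brightest, Bt.4209.2.S1_a_at, read 8.63, 8.55 and 8.32 in muscle, 12.48, 10.64 and 11.94 in abdominal fat and 10.66, 9.71 and 10.14 in subcutaneous fat. Every adipose array was above every muscle array, and the abdominal arrays were widely spread, with replicate 2 well below the other 2 and just under the highest subcutaneous array. Abdominal fat exceeded muscle by 3.19 ± 0.41 (9.13-fold; limma adjusted p = 0.000153) and subcutaneous fat by 1.67 ± 0.41 (3.19-fold; limma adjusted p = 0.00736). A second probe set, Bt.4209.2.S1_at, read 5.20, 4.56 and 4.70 in muscle, near background, then 10.42, 8.17 and 9.64 in abdominal and 8.42, 7.28 and 7.79 in subcutaneous fat. It showed the same order of arrays within each depot. Its measured differences from muscle were 4.59 for abdominal (limma adjusted p = 5.3e-05) and 3.01 for subcutaneous fat (limma adjusted p = 0.00075); no fold is given, since muscle was near background. The other probe set, Bt.4209.1.S1_a_at, stayed under 6 on every array. It read 3.81 to 4.27 in muscle, 4.48 to 5.56 in abdominal and 4.24 to 4.80 in subcutaneous fat, so that muscle and subcutaneous fat overlapped. Its difference between adipose tissue and muscle was 0.68 ± 0.24 (limma adjusted p = 0.035). That call was lost with each array centred on its median (0.56, limma adjusted p = 0.0638), with an offset of 16 added before the log (0.41, 0.0656), with array weights (0.58, 0.0776) and when any of 6 arrays was left out: all 3 of muscle (differences of 0.77, 0.73 and 0.54 without replicate 1, 2 and 3), replicates 1 (0.64) and 3 (0.57) of abdominal fat, and replicate 1 of subcutaneous fat (0.59).

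**Figure D2:**
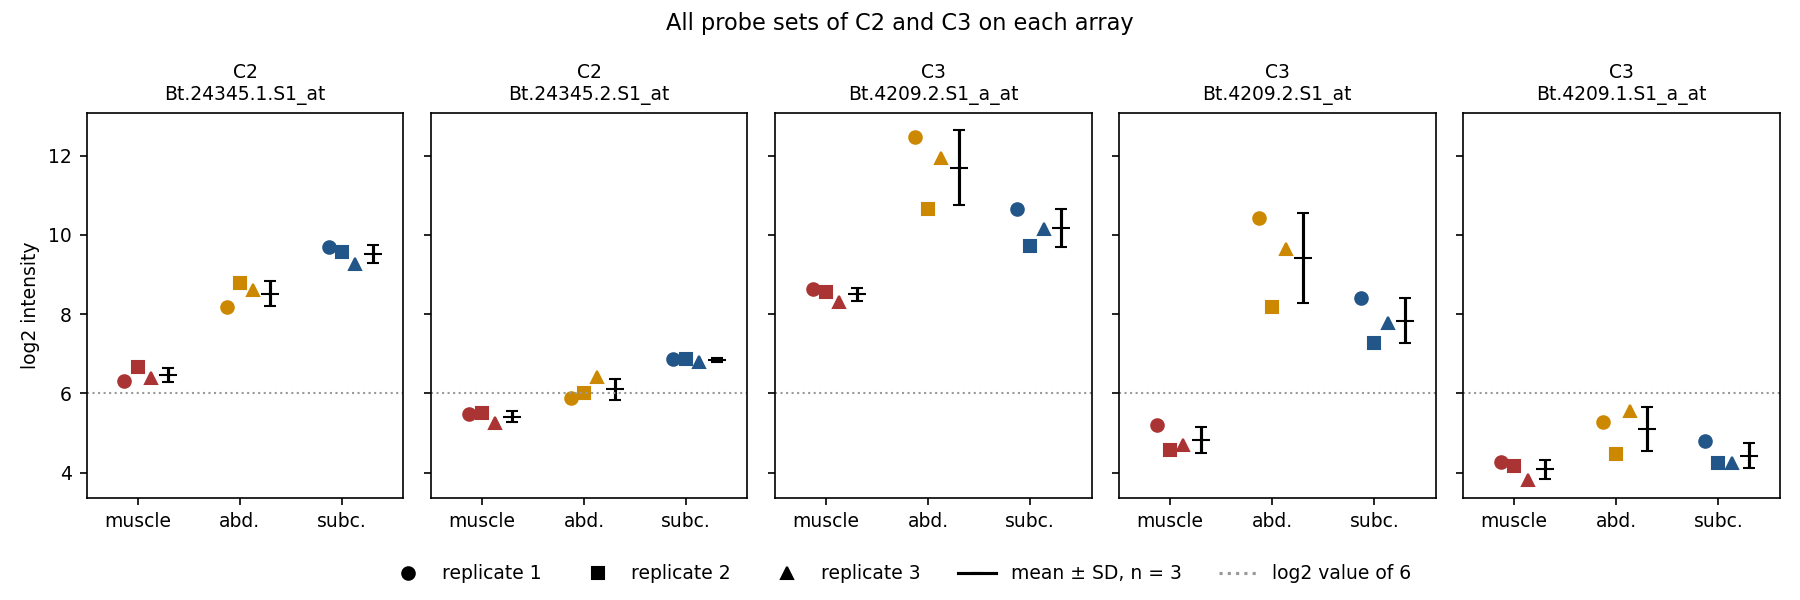
Log2 intensity (vertical axis) of the 2 probe sets of C2 and the 3 of C3 on each of the 9 arrays (horizontal axis, by tissue), with bars for the mean ± SD of 3. Both C2 probe sets step up from muscle to abdominal to subcutaneous fat, while all 3 C3 probe sets have their highest arrays in abdominal fat and dip on abdominal replicate 2.

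CFB encodes factor B, which carries the catalytic part of the alternative C3-splitting enzyme, and it had the largest difference between adipose tissue and muscle among the brightest probe sets of the 8 genes. Its probe set, Bt.13542.1.S1_at, read 6.70, 6.20 and 6.10 in muscle, 10.08, 9.95 and 9.65 in abdominal fat and 10.22, 9.89 and 10.21 in subcutaneous fat. The lowest adipose array was 2.96 above the highest muscle array, and the depots overlapped. Adipose tissue exceeded muscle by 3.67 ± 0.16 (12.7-fold; limma adjusted p = 1.5e-07). Abdominal minus subcutaneous was -0.21 (95% interval -0.64 to 0.21; limma adjusted p = 0.696). In the RefSeq table CFB adjoins C2 with 0 protein-coding genes between them, and C4A lies on the same chromosome with 4 between it and CFB. The paired neighbours CFB and C2 thus differed in their depot values, -0.21 and -0.998, though the difference between these was not tested.

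CFD encodes factor D, or adipsin, the protease that starts the alternative loop by cutting factor B. Its probe set, Bt.4336.1.S1_at, read 8.46, 7.62 and 7.71 in muscle, 9.73, 10.11 and 9.82 in abdominal fat and 9.53, 9.41 and 10.50 in subcutaneous fat. All adipose arrays were above all muscle arrays. Adipose tissue exceeded muscle by 1.92 ± 0.26 (3.79-fold; limma adjusted p = 0.000186), and the depots differed by 0.07 (95% interval -0.61 to 0.76; limma adjusted p = 0.959). The 8 measured adipocyte markers had a median difference of 3.94 in the same comparison, beside which CFD is given as a value without a test. Of these markers, FABP4 (1.79) and GPD1 (0.20, not called) had smaller differences than CFD, and the others larger ones.

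**Figure D3:**
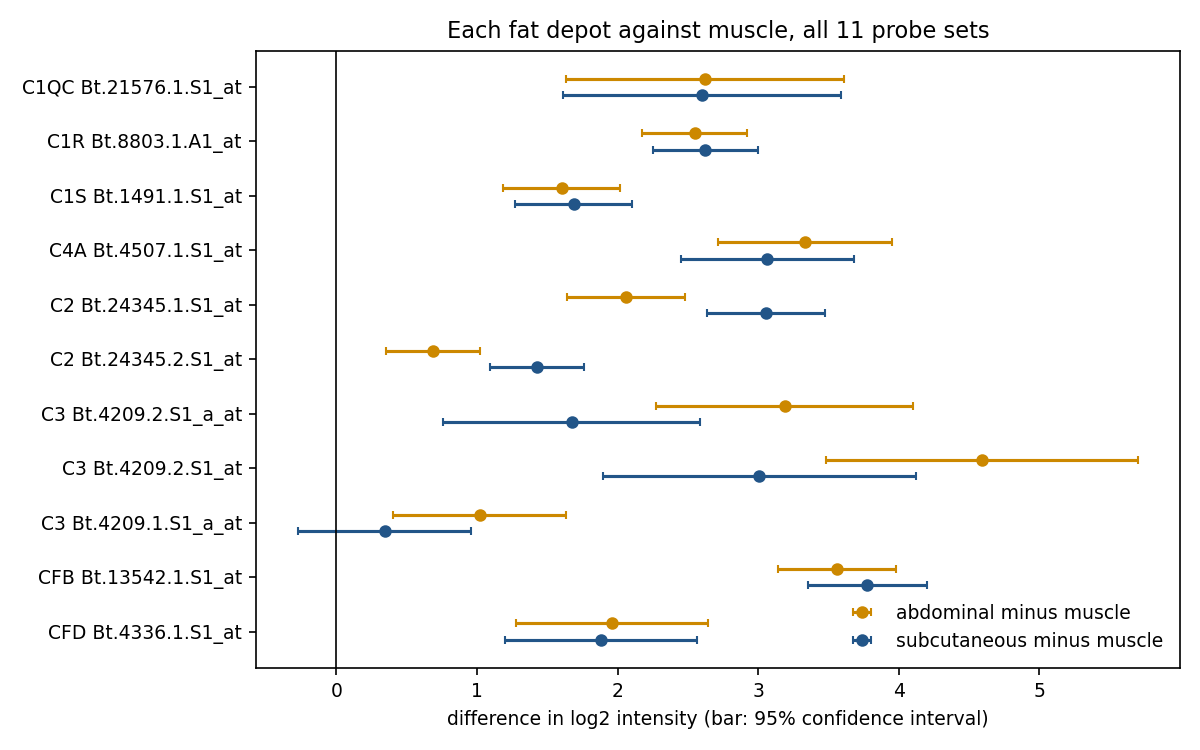
Difference in log2 intensity from muscle (horizontal axis) of abdominal and subcutaneous adipose tissue for each member probe set; points are limma estimates and bars their 95% intervals. The depots lie close together for C1QC, C1R, C1S, C4A, CFB and CFD, while C2 is further from muscle in subcutaneous fat and C3 in abdominal fat.

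Between the depots, 2 of 11 member probe sets were called, both of C2 and both lower in abdominal fat; of all probe sets, 0.666% were called lower and 1.31% in either direction. The brighter C2 probe set was lower in abdominal than in subcutaneous fat by -0.998 ± 0.19 (95% interval -1.42 to -0.58; limma adjusted p = 0.0405), a 2.0-fold difference. The dimmer probe set gave -0.74 ± 0.15 (95% interval -1.08 to -0.40; limma adjusted p = 0.0498), 1.67-fold. On both, every abdominal array lay below every subcutaneous array, as on 13.9% of all probe sets. The calls were close to the threshold. With the leading sample title number as a replicate block both were lost, at -1.12 (limma adjusted p = 0.0804) and -0.94 (limma adjusted p = 0.056). The brighter probe set no longer passed without muscle replicate 1 (limma adjusted p = 0.0606), without abdominal replicate 1 (0.0967), 2 (0.0696) or 3 (0.107), or without subcutaneous replicate 1 (0.124), 2 (0.112) or 3 (0.0708), with differences between -1.13 and -0.83. The dimmer no longer passed when any array other than muscle replicate 3 was left out, with differences between -0.89 and -0.64.

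C3 went the other way without passing the threshold. Its brightest probe set was 1.52 ± 0.41 higher in abdominal fat (95% interval 0.60 to 2.43; limma adjusted p = 0.112), and its other probe sets gave 1.58 (limma adjusted p = 0.168) and 0.68 (limma adjusted p = 0.29). The intervals are for single probe sets and are not adjusted for the number tested. Abdominal replicate 2 (10.64) and subcutaneous replicate 1 (10.66) overlapped by a small margin. Without abdominal replicate 2 the difference was 2.04 (limma adjusted p = 0.0241). Of the fits with an array left out, this was the 1 that passed. Differences across those fits were 1.12 to 2.04, with limma adjusted p up to 0.289. The other C3 probe sets passed in 0 of those fits. Abdominal replicate 2 had the highest 3′ to 5′ ratios of its depot (GAPDH 1.62, actin 5.69). In subcutaneous fat replicate 1 had the highest ratios (1.74 and 8.17), and C3 was highest there. The part of RNA quality in the depot differences was not tested. The median depot difference over the 8 genes was -0.03, against -0.04 over all 9155 genes.

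**Figure D4:**
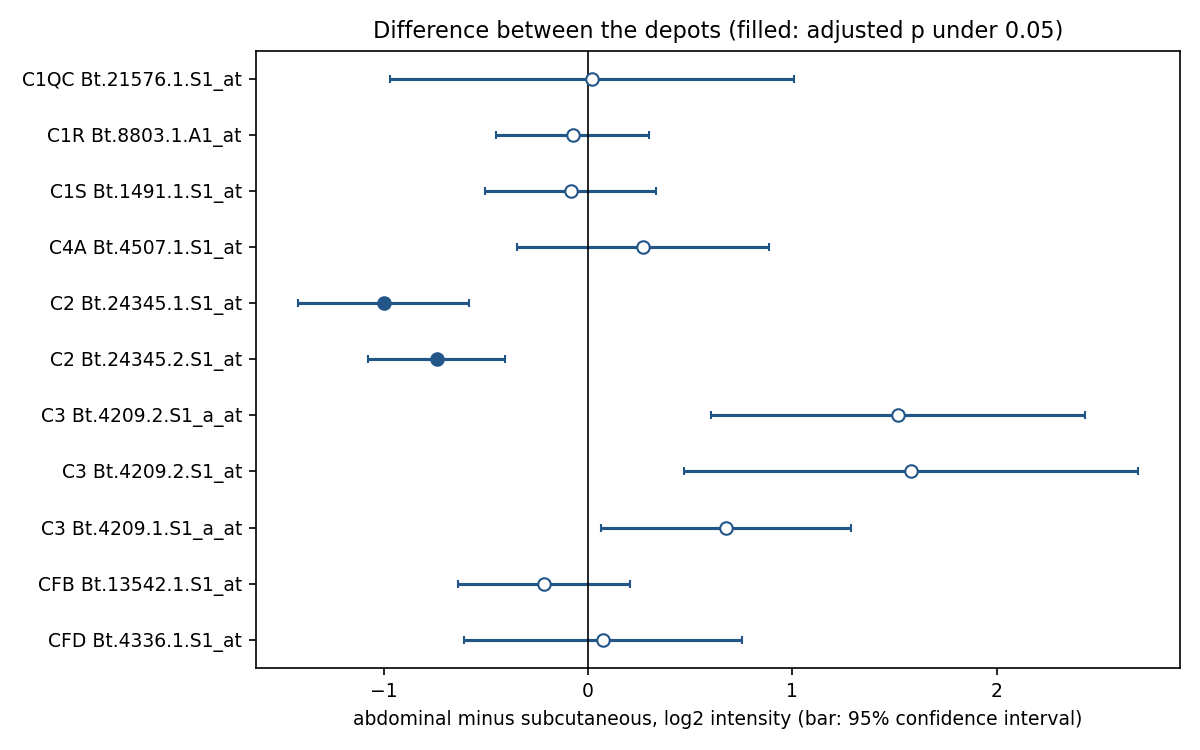
Abdominal minus subcutaneous difference in log2 intensity (horizontal axis) of each member probe set, with the 95% interval of the limma fit. The intervals of both C2 probe sets lie below 0 and those of the 3 C3 probe sets above 0, and all others span 0; of these, both C2 probe sets passed after adjustment over all probe sets.

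Mesothelial genes, which mark the lining of the abdominal cavity, were lowest on abdominal replicate 2, as C3 was, but ran in another order in subcutaneous fat. Of 7 listed genes 3 were measured, MSLN, UPK3B and KRT19, and 1 of these, KRT19, was called higher in fat than in muscle. Their mean log2 intensity was 7.22, 5.10 and 6.67 in abdominal fat and 5.03, 5.50 and 5.26 in subcutaneous fat. Their summed intensity was 78.8 to 82.2 in muscle, 108.9 to 509.7 in abdominal and 120.4 to 173.2 in subcutaneous fat, and the defining marker MSLN had a mean near background in every tissue. MSLN read 6.32, 4.39 and 6.41 in abdominal fat, lowest on replicate 2. On the subcutaneous arrays the list mean was lowest on replicate 1, where C3 was highest. Between the depots 0 of the 3 were called (MSLN 1.64, limma adjusted p = 0.122), and without abdominal replicate 2 MSLN was (2.29, limma adjusted p = 0.00471). The neutrophil list had a summed intensity of 1407.3 to 3734.0 in abdominal fat, 693.2 to 1332.0 in subcutaneous fat and 239.7 to 479.5 in muscle, with MPO and ELANE near background. Its mean log2 intensity was lowest on abdominal replicate 1 (6.60, against 7.60 and 7.17 on replicates 2 and 3), where C3 was highest. In that list 3 of 5 measured genes were higher in fat than in muscle and 2 lower, and 0 of 5 were called between the depots (S100A8 1.55, limma adjusted p = 0.0993; S100A9 1.59, limma adjusted p = 0.104, or 2.08 and 0.0435 without abdominal replicate 1; S100A12 -0.0049, limma adjusted p = 0.999). Over all 9155 genes, 32% were called higher in fat than in muscle, 29.5% lower, and 1.5% were called between the depots. Beside that share, counts of 0 between the depots show nothing particular to these short lists. The part of either cell type in the C3 values was not tested.

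The arrays could be compared gene by gene for likeness to each member, as a description over 9 arrays that share the contrast between fat and muscle. C1QC was most like C1QB, another C1q chain (Pearson r = 0.99), then NAAA and RPL3. C1R was most like CTSB, FGD5 and GNAI2, and C1S most like the macrophage gene CD5L, SLC25A6 and the macrophage receptor CSF1R. C4A was most like DPYD, SLC22A17 and STAT2, C2 most like CERS5, SH3GL1 and TCEA1, CFB most like TIMP2, MSMO1 and SULT1A1, and CFD most like CD302, FXYD6 and NOP53. C3 stood somewhat apart, with its nearest genes MINDY2, IGIP and ARMCX1 at r = 0.96 to 0.97. Over the 9 arrays 112 genes had an r over 0.9 with C3, while the other 7 members had 558 to 1357 such genes.

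Within the 6 adipose arrays alone the members no longer moved as a block. C1QC and C1S had r = 0.94 and C1R and C1S had r = 0.79, while C2 and C3 had r = -0.86. These arrays share the contrast between the depots, in which C2 was lower in abdominal fat and C3 higher, the latter not called. C1QC had r = -0.01 with C4A and r = -0.31 with CFB. The nearest genes also differed from those over 9 arrays. C3 was nearest to MEIS1, PCYOX1 and GADD45A, C2 to ZNF341, RBM15B and NEU3, and C1QC to BLOC1S6, TTC9C and FAM50A. C1R was nearest to MFAP3, TAT and PCSK1, C1S to MYL3, H2AC25 and IL21R, and C4A to BPIFA2C, FEZ1 and CATHL6. CFB was nearest to CCDC93, IFT27 and TKTL2, and CFD to NTAN1, PPP1R10 and INPP1. With 6 arrays, 34 to 303 genes reached an r over 0.9 with each member.

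The rest of the complement system was more mixed, though the members were chosen with earlier results of these data known. Of 50 other complement genes listed, 36 were measured, and 16 were higher in adipose tissue, 7 lower and 13 not called. Over all 9155 genes 32% were called higher and 29.5% lower. The median difference of the 36 was 0.31, and 15 of them were near background in all tissues. Centring each array on its median shifts every difference between adipose tissue and muscle by -0.12, and the split then became 15 higher and 14 lower. For the member probe sets it became 10 higher and 0 lower, against 23.1% of all probe sets higher. When only probe sets over 6 on at least 3 arrays were fitted, 18 of the other complement genes were called, 16 of them higher. Over all probe sets so kept, 8977 were called, 5344 of them higher. Most of the lower calls thus belonged to dim probe sets.

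Among genes that start the classical and lectin pathways, 4 of 10 were higher and 3 lower. The other C1q chains, C1QA (2.53 ± 0.36, limma adjusted p = 0.000217) and C1QB (2.26 ± 0.34, limma adjusted p = 0.000365), rose with C1QC. PTX3, a pattern recognition protein that binds C1q, was higher by 1.80 ± 0.69 (limma adjusted p = 0.0497). That call was lost under median centring (0.0541) and quantile normalization (0.0697), with array weights (1.28, 0.171) or an offset (1.56, 0.0865), and with any of 5 arrays left out, namely replicates 2 (1.36, 0.194) and 3 (1.68, 0.128) of muscle, 1 (1.69, 0.0888) and 2 (1.65, 0.0904) of abdominal fat and 2 (1.34, 0.0515) of subcutaneous fat. The genes lower in adipose tissue were MASP1 (-1.72), MASP2 (-0.66) and COLEC11 (-0.58), all of the lectin pathway, with MASP2 and COLEC11 near background in every tissue. The lectin pathway did not go 1 way. FCN1, also of that pathway, was higher by 1.03 ± 0.21 (limma adjusted p = 0.00268), with muscle and abdominal means near background. MBL1 and MBL2 were not called and were near background in every tissue. These lectin pathway genes were named after their values were seen.

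Of the alternative pathway and terminal components, 3 of 8 were higher and 2 lower. CFP, or properdin, which stabilises the alternative enzyme, was higher by 1.98 ± 0.35 (limma adjusted p = 0.000889). C7 was higher by 1.60 ± 0.23 (limma adjusted p = 0.000272) and C6 by 1.31 ± 0.43 (limma adjusted p = 0.0265); both proteins help build the membrane pore. C6 read 3.60, 4.10 and 3.69 in muscle, 3.52, 4.16 and 4.18 in abdominal and 5.80, 5.33 and 7.64 in subcutaneous fat. Of the 9 arrays, C6 was over 6 on subcutaneous replicate 3 alone. Its call against muscle was lost without muscle replicate 1 (1.21, limma adjusted p = 0.0924) or 3 (1.26, 0.0738), without abdominal replicate 3 (1.25, 0.0522), and with an offset of 16 added before the log (0.88, 0.0889). C8G (-0.56) and C9 (-0.41), named after their values were seen, were the genes called lower. C9 was near background in every tissue and did not pass without muscle replicate 1 (-0.36, limma adjusted p = 0.051).

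Fluid-phase regulators, which restrain the cascade in plasma, had 4 of 7 genes higher and 1 lower. Clusterin, CLU, which blocks pore assembly, was higher by 2.71 ± 0.33 (limma adjusted p = 7.77e-05). SERPING1, the inhibitor of C1r and C1s, was higher by 2.22 ± 0.16 (limma adjusted p = 3.21e-06). CFI, the protease that inactivates C3b and C4b, was higher by 1.90 ± 0.61 (limma adjusted p = 0.0255). CFI read 8.93, 6.07 and 8.47 in abdominal fat and 6.70, 5.13 and 7.16 in subcutaneous fat, with replicate 2 lowest in both depots, as for C3. The call of CFI was lost without muscle replicate 1 (1.73, limma adjusted p = 0.0939) or 2 (1.91, 0.0688), abdominal replicate 3 (1.74, 0.0526), subcutaneous replicate 1 (1.81, 0.0515) or 3 (1.69, 0.0509), and with an offset (1.59, 0.0545). Named after their values were seen, C4BPA, a cofactor of CFI, was higher by 1.81 and VTN was lower (-0.56). VTN was near background in every tissue.

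Of 3 measured membrane regulators, CD46, a cofactor for the cleavage of C3b and C4b on host cells, was higher by 0.97 ± 0.13 (limma adjusted p = 0.000123), and the other 2 were not called. Receptors had 4 of 8 higher and 1 lower. VSIG4, a macrophage receptor for C3 fragments, was higher by 3.27 ± 0.43 (limma adjusted p = 0.000144). ITGB2, the beta chain of complement receptor integrins, was higher by 2.53 ± 0.32 (limma adjusted p = 0.000105), and CD93 by 2.34 ± 0.16 (limma adjusted p = 1.79e-06). Outside the naming rule and chosen after their values were seen, CALR was higher by 0.99 and C1QBP lower (-1.10).

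Between the depots, 0 of the 36 other complement genes passed limma's threshold, where 1.5% of all genes were called. At an unadjusted p under 0.05 there were 6, of which 2 were higher (C4BPA and VTN) and 4 lower (FCN1, C6, C7 and CD55) in abdominal fat. The share of all genes at that unadjusted level is not given here, so this count shows nothing particular to complement genes. C6 had a difference of -2.30 ± 0.49 (limma adjusted p = 0.0583). With array weights in the fit, C6 was the 1 gene called (-2.45, limma adjusted p = 0.0256).

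**Figure D5:**
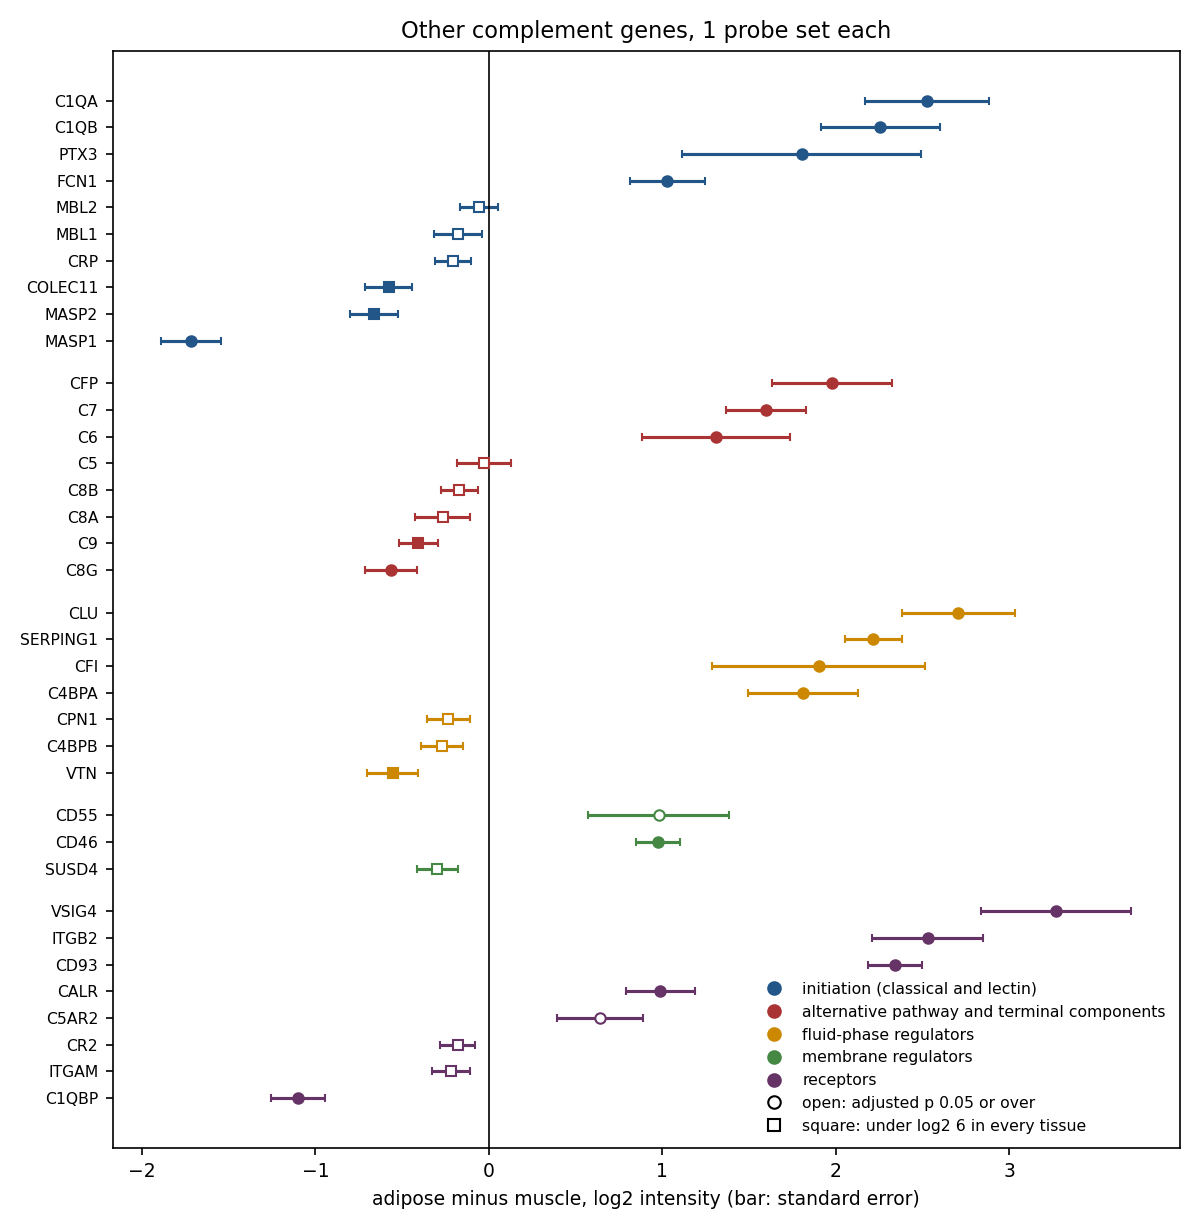
Adipose minus muscle difference in log2 intensity (horizontal axis) of the 36 other complement genes measured, grouped by role, with bars for the SE, filled points for genes called by limma and squares for genes near background in every tissue. Genes called higher (16) and lower (7) occur side by side, and the C1q chains, CLU, SERPING1, VSIG4 and ITGB2 lie to the right.

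Of 15 cytokines and transcription factors known to induce complement genes, 12 were measured, and 8 were higher in adipose tissue and 0 lower, against 32% and 29.5% of all genes. Under median centring the split was 7 higher and 1 lower. PPARG, the master regulator of adipocytes, was higher by 4.24 ± 0.20 (limma adjusted p = 2.29e-07), and CEBPA by 1.45 ± 0.22 (limma adjusted p = 0.000321) with a mean near background in every tissue. IL6, an inducer of the acute phase response, read 3.68, 3.21 and 3.27 in muscle, 7.56, 6.46 and 7.38 in abdominal and 4.06, 4.92 and 3.50 in subcutaneous fat. All abdominal arrays were above all others, and subcutaneous fat was not distinguished from muscle (0.78, limma adjusted p = 0.111). Between the depots IL6 was higher in abdominal fat by 2.97 ± 0.37 (limma adjusted p = 0.00955), the 1 gene of the 12 called there, against 1.5% of all genes. Its subcutaneous mean was near background, so the difference is a measured one and no fold is given. With the leading sample title number as a replicate block IL6 gave 2.65 (limma adjusted p = 0.0526). As with C3, IL6 had its lowest abdominal value on replicate 2. In subcutaneous fat IL6 was highest on replicate 2 (4.92), where the brightest C3 probe set was lowest (9.71). The part of IL6 in the C3 values was not tested. IFNG, IL1B, TNF and HNF4A were near background in all tissues.

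Markers of several cell types moved with the contrast between fat and muscle. Of 7 measured macrophage genes all 7 were higher in adipose tissue (median 2.20), against 32% of all genes called higher and 29.5% lower, with a summed intensity of 533.2 to 968.8 in muscle, 2131.5 to 4544.0 in abdominal and 1953.9 to 4644.1 in subcutaneous fat. Their mean log2 intensity was 8.06, 9.16 and 8.87 in abdominal and 7.99, 9.23 and 8.76 in subcutaneous fat. It was lowest on replicate 1 of each depot, as for C1QC and C1S. In subcutaneous fat it was highest on replicate 2, while C1QC (10.51) and C1S (11.54) were highest on replicate 3. Adipocyte genes summed to 7060.2 to 10196.8 in muscle, 37213.9 to 37746.8 in abdominal and 34058.3 to 35097.8 in subcutaneous fat. Fibroblast genes (9 of 11 higher) and endothelial genes (8 of 9 higher) rose too. Between the depots 1 of 11 fibroblast genes and 1 of 9 endothelial genes were called, against 1.5% of all genes. Both were higher in abdominal fat and named after their values were seen. SFRP2, of the fibroblast list, differed by 2.45 ± 0.38 (limma adjusted p = 0.0248), which did not pass without replicate 2 (2.39, 0.0769) or 3 (2.34, 0.0867) of abdominal fat or 1 (2.22, 0.079) or 2 (2.25, 0.0686) of subcutaneous fat. TEK, of the endothelial list, differed by 1.09 ± 0.18 (limma adjusted p = 0.0293), or 1.18 (0.0881) with the leading sample title number as a replicate block. It passed with muscle replicate 2 or 3 left out and with no other array left out, with differences of 0.998 to 1.18 and limma adjusted p from 0.0505 to 0.0925 where it did not. Of 8 measured hepatocyte genes, 2 were higher (ALB by 1.44 and APOA1 by 1.77), 2 were lower (AHSG and AMBP) and 4 were not called; APOA2, SERPINA1, APOH and AMBP were near background in every tissue. None of the 5 measured lymphocyte genes was called, and all were near background. The part of any of these cell types in the complement values was not tested.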

How the data were processed

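The deposited values are 1 intensity per probe set and array. RMA is named in the submitters' processing notes, with no version or settings in the sources used here. Intensity as deposited ran from 3.06 to 17450.5, a linear scale, so log2 was taken, with no further normalization or filter. Of 24128 probe sets, 112 controls were left out. Names came from the platform annotation, which can be old, updated through gene identifiers: 13292 probe sets had 1 symbol, 86 several and 10638 none. The brightest probe set stood for a gene.

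Tissue means over the 9 arrays were modelled in R 4.3.3 with limma 3.58.1 (lmFit, eBayes); tests were two-sided, with Benjamini-Hochberg adjustment over 24016 probe sets. The procedure was tested on simulated data. The number of arrays limits the precision. The labels name a lipid tissue RNA kit for the adipose samples; that for muscle is not given in the sources used here.

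Members and gene lists were chosen with earlier results of these data known. All members were named. From each list of other complement genes and of inducers, up to 3 genes with the largest called difference between adipose tissue and muscle, and up to 2 called between depots, were named, apart from marker genes of cell types and those stated to be chosen after their values were seen. Likeness used the 3 genes of highest correlation. Alternatives covered the prior variance, scaling, a filter on dim probe sets, an offset of 16, array weights, a replicate block, the arrays fitted, the threshold, the probe set that stands for a gene, and each array left out.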

Additional observations from a re-analysis of the deposited data

Results flagged for a closer look

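The depots differed from muscle by unequal amounts, as tested by the difference between them in limma's fit, in 5 cases among the members and listed genes. Of all probe sets, 1.31% were called in that comparison. The C2 probe set Bt.24345.1.S1_at was lower in abdominal than in subcutaneous fat by -0.998, and the C2 probe set Bt.24345.2.S1_at by -0.74. The cytokine gene IL6 was higher in abdominal fat by 2.97. Among cell type markers, the fibroblast gene SFRP2 was higher in abdominal fat by 2.45 and the endothelial gene TEK by 1.09. The calls of both C2 probe sets, SFRP2 and TEK were lost in several fits with a single array left out. Groups of 3 arrays are too small for a check of single outlying arrays.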

How the results depend on the processing

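Between the depots the count of called member probe sets, 2, became 0 at a threshold of 0.01, 0 with only the compared groups fitted, 1 with a trended prior, 1 with a robust prior, 1 with median centring and 1 with quantile normalization, and ranged from 0 to 2 with each array left out. The count over all probe sets, 314, became 36 at a threshold of 0.01 and 1034 with array weights, and ranged from 57 to 491 with each array left out. The other complement genes went from 0 to 1 with array weights. The counts of member probe sets called against muscle stayed at 10 or 11 under every alternative run, and the 8 brightest member probe sets kept their calls there.

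Depot differences near 0 changed sign. C1QC became -0.13 with array weights. With each array left out, C1QC ranged from -0.41 to 0.38, C1R from -0.23 to 0.062, C1S from -0.22 to 0.10, C4A from -0.053 to 0.53 and CFD from -0.13 to 0.42. The cause was not tested. Other changes of a call stand beside the results for C2, C3 and the listed genes concerned.

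The leading number of the sample title was tried as a replicate block. Deviations of same-numbered arrays correlated at 0.04 to 0.36 over 7 pairs and those of other pairs at -0.32 to 0.17. Not every pair passed 0.1, and the main fit did not pair the arrays by number. Between the fat depots, however, same-numbered arrays correlated at 0.33 and 0.36 and other arrays at -0.32 to 0.09. Whether same-numbered arrays share an animal is not given in the labels. With the block the depot counts were 0 of 11 members and 118 of all probe sets, C2 gave -1.12 (limma adjusted p = 0.0804), C3 1.34 (limma adjusted p = 0.163), IL6 2.65 (limma adjusted p = 0.0526) and TEK 1.18 (limma adjusted p = 0.0881). PTX3 against muscle gave 1.93 (limma adjusted p = 0.0501).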
